A study of Mus musculus with 12 samples.

Results

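The JAK kinases and STAT factors described here were 9 genes, the kinases Jak1, Jak2 and Jak3 and the transcription factors Stat2, Stat3, Stat4, Stat5a, Stat5b and Stat6. They were taken by exact gene symbol, without a cut on their values, from a table of 55228 symbols. The list itself was chosen with earlier results of these data known. All 9 had a mean of at least 1 TPM, the unit of transcript abundance in which each library has the same total, over the 12 libraries and were therefore among the 15043 genes tested. The cells were regulatory T cells (Tregs), sorted as GFP+CD25+ cells from the CD4+ T cells of 16 pooled NOD.Foxp3-GFP mice, in which GFP marks Foxp3. Every group was activated in culture, given a retroviral vector with the surface reporter Thy1.1 on day 2, and sorted for Thy1.1 on day 9. EV Tregs carried the empty vector. From day 4 they were kept without IL-2 in the group EV no IL-2, or left in medium with IL-2 in the group EV+IL-2. 1G12t and 3A10t Tregs also rested without IL-2 from day 4. Their vector encoded 1 of 2 orthogonal IL-2 variants, 1G12 or 3A10, joined through a stretch of CD25 to the β chain of the orthogonal IL-2 receptor. Each group had 3 libraries. The pooled cells had been divided into 3 parts that were sorted on different machines and activated apart, and each part fed all 4 groups. The replicates were thus cultures from a single pool of mice, and the p-values below measure the spread between cultures, not between animals. No age was given for NOD.Foxp3-GFP mice by name in the sources used here.

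IL-2 acts through a receptor made of CD25, IL-2Rβ and the common γ chain. JAK1 is bound to IL-2Rβ and JAK3 to the γ chain, and when the chains are brought together the kinases phosphorylate the receptor and then STAT5A and STAT5B, which pair and enter the nucleus. In Tregs this path maintains Foxp3 and survival. The other members serve other cytokines: JAK2 works with receptors for IFN-γ and IL-12, STAT2 with type I interferon receptors, STAT3 with IL-6, IL-10 and IL-21, STAT4 with IL-12 and STAT6 with IL-4. The data are RNA levels and hold no phosphorylation.

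The labelled cell type was present in its defining markers. The 6 T cell and Treg markers (Cd3e, Cd4, Foxp3, Il2ra, Ctla4 and Ikzf2) summed to between 1596 and 2242 scaled TPM in every library, where scaled TPM are the deposited values divided by 1 factor per library. The 4 B cell markers summed to between 9.19 and 16.6, the 2 CD8 T cell markers to between 3.45 and 6.51, and the 2 NK cell markers to at most 0.520. The 4 myeloid markers summed to between 0.292 and 1.47 in the 6 EV libraries, with S100a8 at 0 in all 3 EV+IL-2 libraries, and to between 1.59 and 3.04 in the 6 libraries with a tethered construct. The part of these cells in the results was not tested. The median within-group SD of a gene, on the log2 scale, was 0.224 in 3A10t and 0.154 in 1G12t, against 0.119 for EV no IL-2 and 0.109 for EV+IL-2. In the 3A10t group, replicate 1 stood apart from replicates 2 and 3, and results that rest on it are given with and without it. TPM keep no sequencing depth, so the spread between libraries is the only error given. In bulk RNA, fewer cells that express a gene and less RNA per cell cannot be told apart.

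Jak1 was the most abundant of the 9 transcripts in resting EV Tregs and Jak2 the least. On the scaled TPM scale, which is per transcript length and so allows genes to be compared, the EV no IL-2 means ran from Jak1 (379) through Stat3 (279.7), Stat6 (219), Stat5b (127), Stat4 (72.5), Jak3 (62.6), Stat5a (53.2) and Stat2 (36.1) to Jak2 (20.0). No neighbours in this order overlapped in their 3 libraries. With IL-2 the order changed. Stat3 (287) stood above Jak1 (255) and Jak3 (81.3) above Stat5b (76.2), although the libraries of both pairs overlapped, and Stat2 (40.0) stood above Stat5a (33.7) without overlap. In 1G12t the order was that of EV no IL-2, and Stat4 and Jak3 overlapped. In 3A10t the order of the means was again the same, with overlap between Jak1 and Stat3, Stat6 and Stat5b, Stat4 and Jak3, and Jak3 and Stat5a.

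**Figure D1:**
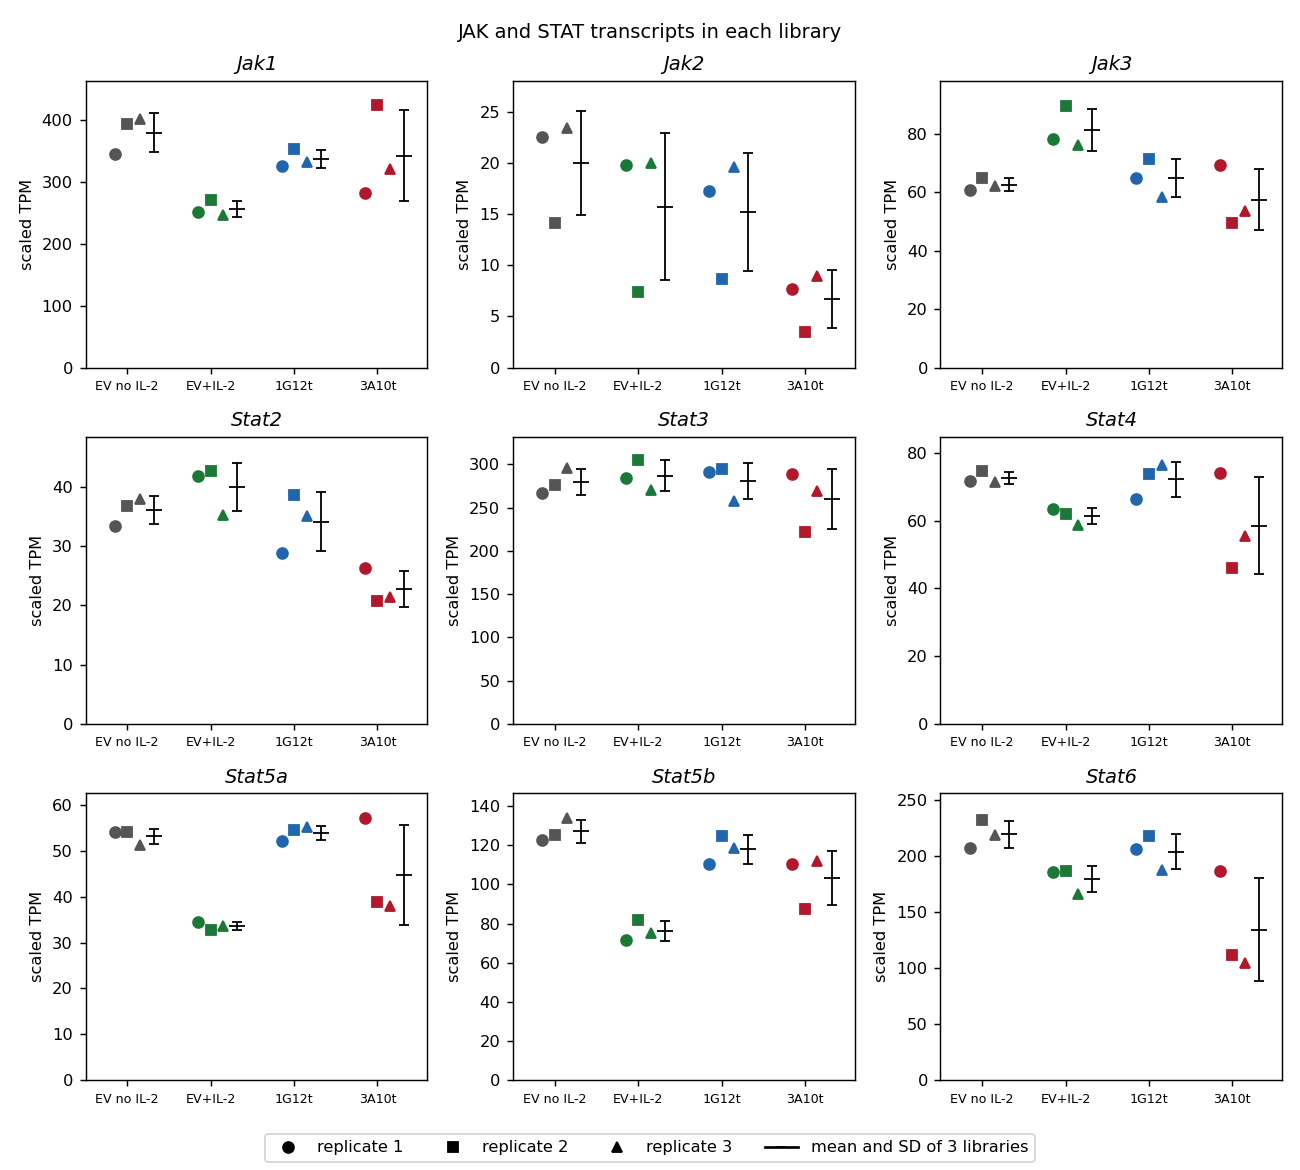
Scaled TPM (vertical axes, linear from 0) of the 9 genes in each of the 12 libraries, by group; symbols mark the replicate and the bars the mean and SD of 3 libraries. Jak1, Stat5a and Stat5b sit lower in all 3 EV+IL-2 libraries than in EV no IL-2, and Stat2 and Jak2 sit lower in all 3 3A10t libraries.

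IL-2 was accompanied by less RNA for 3 components of its own pathway, Jak1, Stat5a and Stat5b, while Jak3 and Stat3 were not lower. At an adjusted p under 0.05 by limma, these 3 of 9 were called lower in EV+IL-2 than in EV no IL-2, where 5.13% of all genes tested were called lower, and 0 were called higher against 8.17% of all genes. The study's own rule asks for an unadjusted p below 0.01 with a log2 fold change of more than 0.25 either way. Here and below it was applied to the limma p-values and not to the study's DESeq2 p-values, so its picks are not those of the study. It picked the same 3 genes (15.1% of all genes). All 3 EV+IL-2 libraries lay below all 3 EV no IL-2 libraries for 5 members, Jak1, Stat4, Stat5a, Stat5b and Stat6 (20% of all genes), and above them for 1, Jak3 (19.6%). The median log2 fold change of the 9 was -0.29, beside -0.01 over all genes tested. The fit on only the 6 EV libraries called 6 members, adding Jak3, Stat4 and Stat6, and 21.3% of all genes. Without 3A10t replicate 1, whose spread enters the shared error of all groups, 5 were called, adding Jak3 and Stat6, and 16.6% of all genes.

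3A10t Tregs had lower Stat2, and the estimates of all 9 genes against EV no IL-2 were negative. Stat2 was the 1 member called lower, where 1.6% of all genes were called lower, and 0 were called higher (0.452% of all genes). The study's rule picked 3 members, Jak2, Stat2 and Stat6 (9.5% of all genes). All 3 libraries lay below EV no IL-2 for 4 members, Jak2, Stat2, Stat5b and Stat6 (12.1% of all genes), and above it for 0 (13.3%). The median log2 fold change of the 9 was -0.30 beside 0.03 over all genes. The replicate number marks a shared sort, and with it as a block 2 members were called, Jak2 and Stat2, and 2.67% of all genes. Without 3A10t replicate 1 the count was 6, Jak2, Stat2, Stat4, Stat5a, Stat5b and Stat6, but the share of all genes called was then 23.2% (7.91% higher and 15.3% lower), so the larger count went with more calls across all genes. With a correction for transcript length it was 0 (0.971% of all genes). The longest transcript of every member, from 2982 bases for Stat4 to 6042 for Stat3, exceeded the median of 2682 over genes tested. After the correction Stat2 stood at log2 -0.49, and Jak3 (0.010) and Stat3 (0.017) were no longer negative. The part of transcript length in the shared sign was not tested, and the share of all genes with a negative estimate was not counted.

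No member separated 1G12t from EV no IL-2. By limma, 0 members were called in either direction, against 0.0133% of all genes called higher and 0.00665% lower, and 0 had an unadjusted p under 0.05. The study's rule picked 0 (1.36% of all genes), and for 0 members did all 3 libraries lie below (7.8%) or above (8.68%) those of EV no IL-2. The smallest unadjusted p was 0.218, for Jak1. Apart from Jak2, whose 95% interval ran from -1.36 to 0.53, the log2 intervals reached no further than -0.50, the lower bound for Stat6, and 0.32, the upper bound for Jak3. Differences of that size remain within the intervals.

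Set directly against each other, 3A10t was lower than 1G12t in Stat2, the 1 member called (2.96% of all genes lower, 1.3% higher). The study's rule picked Stat2 and Stat6 (12.4% of all genes), and for the same 2 genes all 3 3A10t libraries lay below all 3 of 1G12t (12.5%), with 0 members above (13.7%). The replicate block gave 2 calls, Stat2 and Jak2 (6.56% of all genes), and leaving out 3A10t replicate 1 gave 5, Stat2, Stat4, Stat5a, Stat6 and Jak3, in a fit that called 27.6% of all genes (11.7% higher and 15.9% lower). Against EV+IL-2, 3A10t was called higher in Jak1 and Stat5b (10.3% of all genes higher) and lower in Jak3 and Stat2 (13% lower). 1G12t was called higher than EV+IL-2 in Stat5a and Stat5b (9.69% of all genes), and 0 members were called lower (10.9%). These comparisons share libraries with those above.

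**Figure D2:**
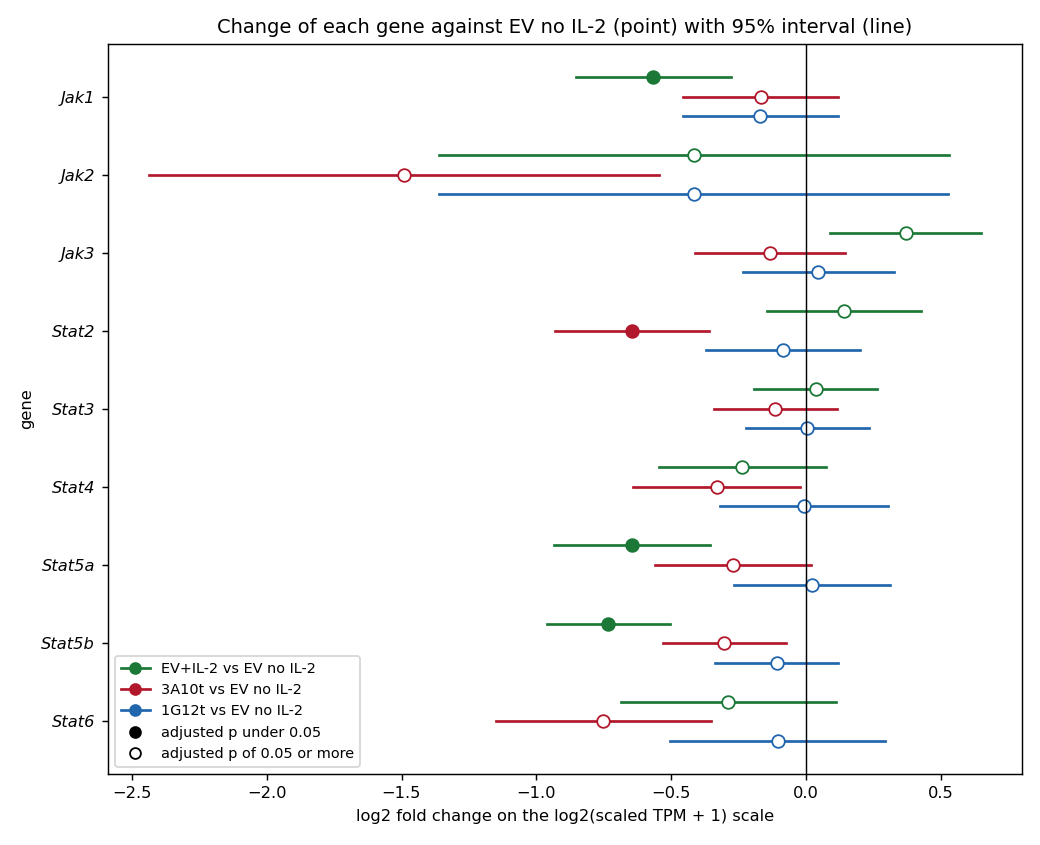
Log2 fold change (horizontal axis, on the log2(scaled TPM + 1) scale) of each gene, with the EV no IL-2 libraries as the base, for EV+IL-2, for 3A10t and for 1G12t, with 95% intervals; filled points have an adjusted p under 0.05. The filled points are Jak1, Stat5a and Stat5b for EV+IL-2 and Stat2 for 3A10t, and Jak2 has the widest intervals.

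Jak1 (chr4:101152367-101265282, minus strand, GRCm38) encodes the kinase held by IL-2Rβ, the chain that the tethered constructs supply. It stood at 344, 393 and 400.3 scaled TPM in the 3 EV no IL-2 libraries, and at 250.5, 270.0 and 246 with IL-2, so that the groups did not overlap. The mean was 32.6% lower with IL-2 (255 ± 13.0 against 379 ± 30.9, SD, n = 3), a log2 fold change of -0.57 with an SE of 0.13 and an adjusted p of 0.0149. The call was lost without EV no IL-2 replicate 2 (adjusted p = 0.0570) or 3 (0.0622), and without EV+IL-2 replicate 1 (0.0584) or 3 (0.0563). The 1G12t libraries held 325, 352 and 332, and the 3A10t libraries 281, 423 and 320.2. All 6 thus lay above all 3 EV+IL-2 libraries, an order whose share of all genes was not counted. The difference of 3A10t from EV+IL-2 was called at an adjusted p of 0.0485 (log2 0.40, SE 0.13) and that of 1G12t was not, at 0.0530 (log2 0.40, SE 0.13), although with the replicate block it was called too (adjusted p = 0.0270). The 3A10t call was lost in 11 of the 12 fits that leave out 1 library, each except the fit without 3A10t replicate 1, with adjusted p from 0.0566 to 0.136.

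Jak3 (chr8:71676296-71690575, plus strand) encodes the partner kinase on the γ chain, and its difference with IL-2 had the opposite sign. Its 3 EV no IL-2 libraries stood at 60.8, 65.0 and 62.0 scaled TPM and its EV+IL-2 libraries at 78.2, 89.5 and 76.1, all above. The mean was 29.8% higher with IL-2, but the adjusted p of 0.0834 missed the threshold (log2 0.37, SE 0.13, 95% interval from 0.09 to 0.65). It passed without 3A10t replicate 1 (adjusted p = 0.0220) or 2 (0.0454). It also passed with only the 6 EV libraries (0.0229), with the transcript length correction (0.0209) and with protein-coding genes only (0.0480). 1G12t held 64.8, 71.3 and 58.3 and 3A10t held 69.5, 49.4 and 53.7, and both groups overlapped EV no IL-2. 3A10t lay below EV+IL-2 in all 3 libraries and was called lower (log2 -0.50, SE 0.13, adjusted p = 0.0168), which was lost without EV+IL-2 replicate 2 (adjusted p = 0.0633) or 3A10t replicate 3 (0.0559). How many of all genes lay below EV+IL-2 in this way was not counted.

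The kinases of the IL-2 receptor stood in a lower ratio with IL-2. The ratio of Jak1 to Jak3 TPM within a library does not depend on scaling, and without IL-2 it was 5.65, 6.05 and 6.45 in the EV libraries, against 3.20, 3.02 and 3.22 in EV+IL-2. It was 5.02, 4.93 and 5.70 in 1G12t and 4.04, 8.57 and 5.96 in 3A10t, so that every library without IL-2 exceeded every library with it. An exact permutation test of the log2 ratio over the 4 groups gave p = 0.0149, or 0.0299 adjusted over the 2 ratios tested. The ratio was chosen with earlier results of these data known, so this p-value is no independent evidence. The test asks whether the 4 groups differ and not which group does. With groups permuted within the replicate block the adjusted p was 0.0868. It also passed the threshold no longer without EV no IL-2 replicate 2 (adjusted p = 0.0542) or 3 (0.0508), EV+IL-2 replicate 1 (0.0773), 2 (0.0894) or 3 (0.0766), or 3A10t replicate 3 (0.0542). As a share of the summed TPM of the 3 kinases, Jak1 made up 82.0% ± 1.41 in EV no IL-2, against 72.4% ± 0.986 with IL-2 (SD, n = 3). For Jak3 the shares lay between 12.8% and 14.2% and between 22.3% and 24.4%.

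Jak2 (chr19:29251828-29313080, plus strand) encodes a kinase of other cytokine receptors, and its level varied with the replicate number as well as with the group. The EV libraries without IL-2 stood at 22.5, 14.2 and 23.4 scaled TPM, EV+IL-2 at 19.8, 7.42 and 20.0, 1G12t at 17.3, 8.68 and 19.7, and 3A10t at 7.72, 3.51 and 8.97. Replicate 2 was the lowest library in 4 of 4 groups and replicate 3 the highest in 4 of 4. The share of all genes with such an order was not counted. Over all genes tested, deviations of libraries with the same number correlated by only 0.041 on average. On the log2 scale replicate 2 lay 0.67 below its group mean on average, and the within-group SD of Jak2, 0.599, was larger than that of 90.4% of genes tested (median 0.189). All 3 3A10t libraries lay below all 3 EV no IL-2 libraries, and the mean was 66.4% lower. Without the block this was a log2 fold change of -1.49 with an SE of 0.43 and an adjusted p of 0.0855. With the shared sort as a block the SE was 0.13 and the adjusted p 0.00244. The block also added Jak2 to the calls of 3A10t against 1G12t (log2 -1.07, adjusted p = 0.0122) and against EV+IL-2 (log2 -1.08, adjusted p = 0.000830), both without a call when the block was left out (0.128 and 0.0933). Without 3A10t replicate 1 the difference from EV no IL-2 passed without a block as well (adjusted p = 0.0424), and without EV+IL-2 replicate 2 so did that from EV+IL-2 (adjusted p = 0.0297).

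**Figure D3:**
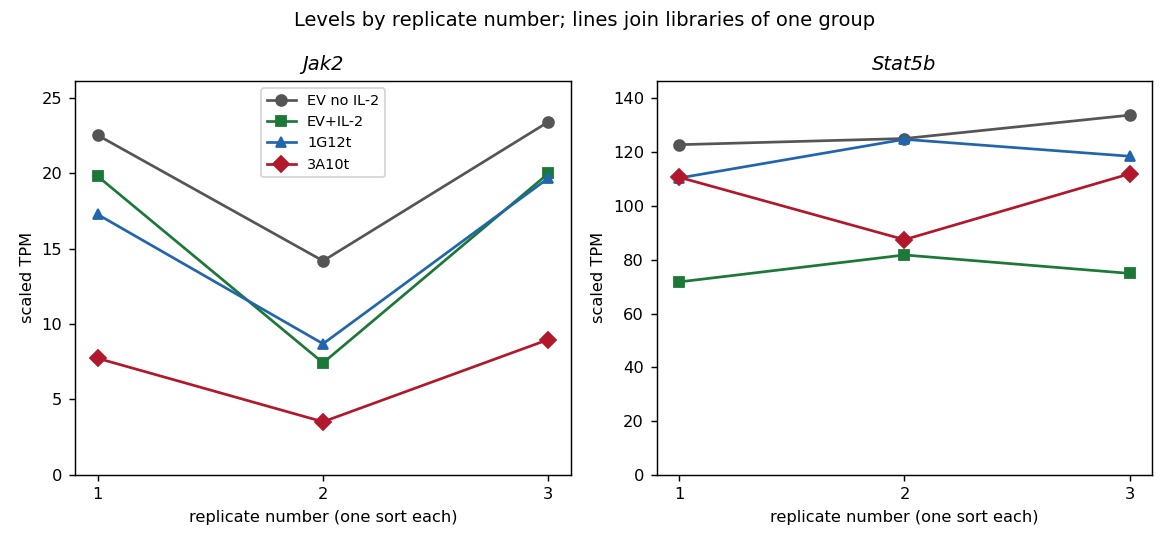
Scaled TPM of Jak2 and Stat5b (vertical axes, linear from 0) by replicate number, which marks a shared sort; each line joins the 3 libraries of 1 group. The 4 Jak2 lines dip together at replicate 2 and the 3A10t line runs lowest at every sort, whereas the Stat5b lines show no common dip and the EV+IL-2 line runs lowest.

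STAT5 is the main STAT of the IL-2 receptor, and its 2 genes are neighbours on chromosome 11. Stat5b (chr11:100780731-100850724, minus strand) and Stat5a (chr11:100859351-100885169, plus strand) start 8626 bases apart and run away from each other, and Stat3 (chr11:100885098-100939540, minus strand) follows, its end overlapping that of Stat5a by 72 bases. The 3 genes span 158810 bases. Reads from the shared 72 bases cannot be assigned without strand, and whether the counting used strand was not given in the sources used here. Of the 3839 windows of 50 bases, the read length, in the Stat5a-201 transcript, 608 (15.8%) occur also in Stat5b, so a part of the reads of each could be split with the other. No such window was shared by any other pair of the 9 genes.

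The start regions of these neighbours are shown because Stat5a and Stat5b were called together and Stat3 was not, and that of Stat2 because it was the member called in 3A10t. Each is a RefSeq window on GRCm38.p6 of 250 bases before to 50 bases after an annotated start, written 5′ to 3′ on the gene's strand, and Stat5a has a window for each of 2 starts. Stat5b has a second window too, at a start inside the gene (chr11:100822521-100822820, 47.3% G and C, no match to these letters), which is not printed. Capitals mark matches, on either strand, to GGGCGG (or its complement), TTCNNNNGAA and GAAANNGAAA. In Stat2 the matches to GAAANNGAAA and TTCNNNNGAA are the first 2 stretches in capitals, which lie close together without overlap.
Stat5b, chr11:100850532-100850831, minus strand: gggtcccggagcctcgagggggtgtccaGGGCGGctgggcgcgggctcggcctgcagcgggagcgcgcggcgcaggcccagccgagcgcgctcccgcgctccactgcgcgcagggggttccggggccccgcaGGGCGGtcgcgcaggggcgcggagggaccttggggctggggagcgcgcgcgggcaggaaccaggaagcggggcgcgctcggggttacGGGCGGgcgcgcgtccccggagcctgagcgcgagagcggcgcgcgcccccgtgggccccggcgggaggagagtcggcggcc
Stat5a, first start, chr11:100859406-100859705, plus strand: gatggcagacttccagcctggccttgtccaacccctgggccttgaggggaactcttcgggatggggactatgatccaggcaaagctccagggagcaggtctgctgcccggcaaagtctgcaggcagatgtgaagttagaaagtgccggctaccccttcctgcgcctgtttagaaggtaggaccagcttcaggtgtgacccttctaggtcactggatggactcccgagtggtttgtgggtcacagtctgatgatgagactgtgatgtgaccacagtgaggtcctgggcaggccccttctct
Stat5a, second start, chr11:100860234-100860533, plus strand: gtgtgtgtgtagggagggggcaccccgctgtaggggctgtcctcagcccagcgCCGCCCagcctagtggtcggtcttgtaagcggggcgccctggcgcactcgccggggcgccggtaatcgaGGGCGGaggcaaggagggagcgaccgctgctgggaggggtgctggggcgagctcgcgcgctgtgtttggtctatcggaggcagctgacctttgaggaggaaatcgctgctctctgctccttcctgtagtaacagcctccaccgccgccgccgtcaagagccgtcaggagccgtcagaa
Stat3, chr11:100939491-100939790, minus strand: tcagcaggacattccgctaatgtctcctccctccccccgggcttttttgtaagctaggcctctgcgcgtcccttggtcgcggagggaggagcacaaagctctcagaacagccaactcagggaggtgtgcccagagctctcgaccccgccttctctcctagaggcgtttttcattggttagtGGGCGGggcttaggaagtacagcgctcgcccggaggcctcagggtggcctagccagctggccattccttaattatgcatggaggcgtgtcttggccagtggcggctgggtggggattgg
Stat2, chr10:128270248-128270547, plus strand: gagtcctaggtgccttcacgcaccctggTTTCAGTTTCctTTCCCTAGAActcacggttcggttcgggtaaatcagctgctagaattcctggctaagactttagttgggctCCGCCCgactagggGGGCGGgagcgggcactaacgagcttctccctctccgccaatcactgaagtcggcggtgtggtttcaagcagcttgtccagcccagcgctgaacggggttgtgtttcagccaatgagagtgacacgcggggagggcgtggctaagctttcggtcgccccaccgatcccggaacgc
TTCNNNGAA, the spaced palindrome that STAT5 pairs are known to bind, was in 0 of the 12 windows of the 9 members, beside 8.3% of all 32851 windows. TTCNNNNGAA, the spacing known for STAT6, was in 1 of 12, the Stat2 window (6.95% of all windows), and GAAANNGAAA, letters of the element bound by the complex of STAT2 with its partners, in 2 of 12, 1 each of Stat2 and Stat4 (3.44%). GGGCGG was in 7 of 12 (35.7%) and TATAAA in 0 of 12 (13.6%). A match describes letters and not a bound site, and a missing match says only that the letters are not within these 300 bases.

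Stat5a stood at 54.1, 54.1 and 51.4 scaled TPM without IL-2 and at 34.5, 32.9 and 33.6 in EV+IL-2, with no overlap. Stat5b stood at 123, 125 and 134 and at 71.8, 81.8 and 74.9. With IL-2 the mean of Stat5a was 36.8% lower and that of Stat5b 40.1% lower, the 2 largest relative differences among the 9 genes in that comparison. The log2 fold changes were -0.65 (SE 0.13, adjusted p = 0.00789) for Stat5a and -0.73 (SE 0.10, adjusted p = 0.000861) for Stat5b. Both were called under all 25 alternatives tried, where the log2 fold change of Stat5a lay between -0.71 and -0.59 and that of Stat5b between -0.80 and -0.69.

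The STAT5 genes stood above EV+IL-2 in all 6 libraries with a tethered construct. How many of all genes did so was not counted. Between EV+IL-2 and EV no IL-2, all 3 libraries lay below for 20% of all genes and above for 19.6%. 1G12t held 52.3, 54.6 and 55.2 scaled TPM of Stat5a and 110.4, 125 and 118.5 of Stat5b, above all EV+IL-2 libraries. The differences of 1G12t from EV+IL-2 were called for Stat5a (log2 0.67, SE 0.13, adjusted p = 0.00532) and for Stat5b (log2 0.62, SE 0.10, adjusted p = 0.00203). 3A10t held 57.3, 38.9 and 37.9 of Stat5a and 110.7, 87.5 and 112.0 of Stat5b, also above all EV+IL-2 libraries, and replicate 1 alone of the Stat5a values was as high as in EV no IL-2. Against EV+IL-2, Stat5b was called higher in 3A10t (log2 0.43, SE 0.10, adjusted p = 0.0138) and Stat5a was not (log2 0.37, SE 0.13, adjusted p = 0.0621). The Stat5b call was lost without EV+IL-2 replicate 1 (adjusted p = 0.0671) or 3A10t replicate 3 (0.0541). It was also lost with TPM as deposited (0.0963) and with only the 6 libraries compared (0.0773). Stat5a passed without 3A10t replicate 2 (0.0495) or 3 (0.0402). It passed too with quantile normalization (0.0144), the transcript length correction (0.00615) and protein-coding genes only (0.0224). Without 3A10t replicate 1 the log2 difference of Stat5a from EV+IL-2 fell to 0.19 (adjusted p = 0.0463), and it was not called once the replicate block was added. Against EV no IL-2, the 3A10t differences were log2 -0.27 for Stat5a (adjusted p = 0.214) and -0.30 for Stat5b (adjusted p = 0.115), and both passed without 3A10t replicate 1, at log2 -0.46 (adjusted p = 0.00105) and -0.36 (0.0437).

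The ratio of the 2 STAT5 genes did not differ detectably between groups, while their joint share of STAT RNA was lower with IL-2. The ratio of Stat5a to Stat5b was 0.419 ± 0.0309 for EV no IL-2, 0.444 ± 0.0397 for EV+IL-2, 0.459 ± 0.0191 for 1G12t and 0.433 ± 0.0901 for 3A10t (SD, n = 3). An exact permutation test over the groups gave p = 0.842, also 0.842 after adjustment, and between 0.322 and 0.939 under the alternatives. Stat5a and Stat5b together made up between 22.4% and 23.4% of the summed TPM of the 6 STAT genes without IL-2, between 15.6% and 17.0% with it, between 21.5% and 23.8% for 1G12t and between 22.6% and 25% for 3A10t. The EV+IL-2 libraries lay below the 9 others.

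**Figure D4:**
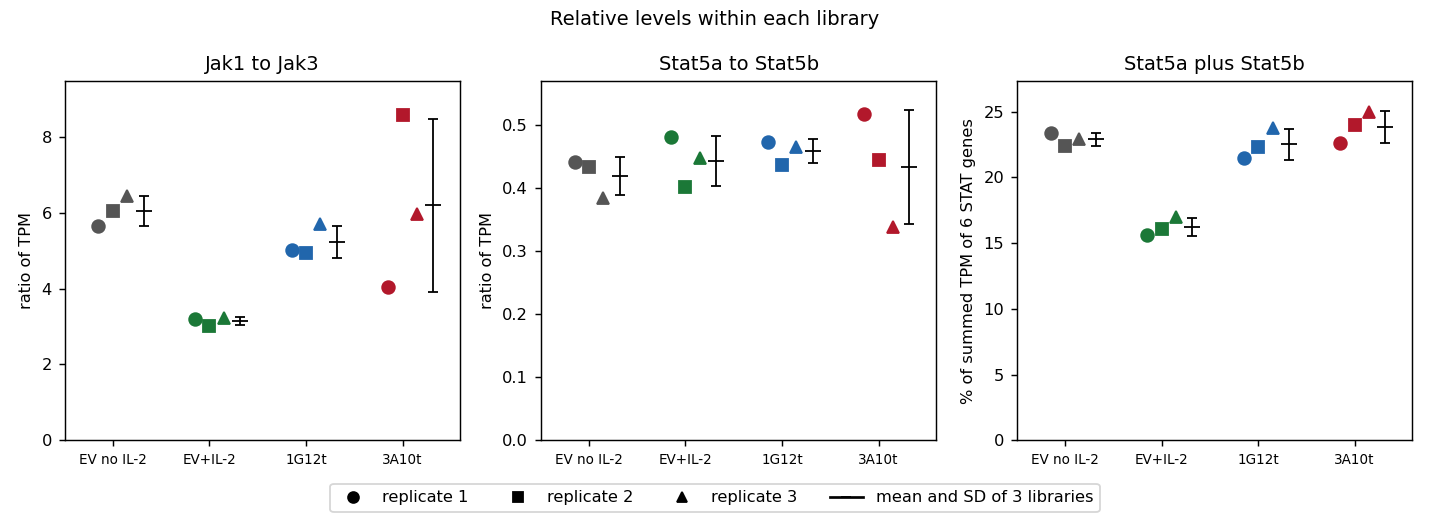
Ratio of Jak1 to Jak3 TPM, ratio of Stat5a to Stat5b TPM, and Stat5a plus Stat5b as a percentage of the summed TPM of 6 STAT genes (vertical axes, linear from 0) in each library; bars give the mean and SD of 3 libraries. The EV+IL-2 libraries lie lowest in the first and last panels, and the groups overlap in the middle panel.

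Stat2 (chr10:128270559-128292849, plus strand), the STAT of type I interferon signaling, was lower in 3A10t than in each of the other groups. Its values were 33.5, 36.9 and 38.0 scaled TPM in EV Tregs without IL-2, 41.9, 42.7 and 35.3 with IL-2, 28.8, 38.7 and 35.1 for 1G12t, and 26.3, 20.7 and 21.3 for 3A10t. Every 3A10t library lay below the 9 others, an order whose share of all genes was not counted. The log2 fold change of 3A10t was -0.65 against EV no IL-2 (SE 0.13, adjusted p = 0.0380), -0.56 against 1G12t (SE 0.13, adjusted p = 0.0433) and -0.79 against EV+IL-2 (SE 0.13, adjusted p = 0.00201). The last was called under all 25 alternatives. The difference from EV no IL-2 was called under 10 of 25 and that from 1G12t under 9 of 25, with the direction kept in all. The first was lost without any 1 of the EV libraries, without 1G12t replicate 2 and without 3A10t replicate 2 or 3, with adjusted p from 0.0524 to 0.150, and was called at 0.00315 without 3A10t replicate 1. The difference from 1G12t was lost in the fits without the same libraries or without 1G12t replicate 3, with adjusted p from 0.0602 to 0.122, and was called at 0.00594 without 3A10t replicate 1.

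Stat6 (chr10:127642986-127660957, plus strand), the STAT of IL-4 signaling, showed how far 3A10t replicate 1 differs from the other 3A10t libraries. 3A10t held 187 scaled TPM in replicate 1 and 111.5 and 104.5 in replicates 2 and 3, while EV no IL-2 held 207, 232 and 219, EV+IL-2 186, 186 and 166, and 1G12t 207, 218 and 187. All 3 3A10t libraries lay below EV no IL-2 and the mean was 38.8% lower, but the adjusted p was 0.0609 (log2 -0.75, SE 0.18). Without 3A10t replicate 1 the log2 fold change was -1.01 and the adjusted p 0.000151. Stat6 also differed by log2 -0.65 between 3A10t and 1G12t at an adjusted p of 0.0598, and by -0.91 at 0.000320 without that library. With IL-2 it stood 18.2% lower than without, not past the threshold (log2 -0.29, SE 0.18, adjusted p = 0.365), and past it without 3A10t replicate 1 (adjusted p = 0.0372).

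Stat4 (chr1:51987148-52107189, plus strand), the STAT of IL-12 signaling, stood at 71.6, 74.5 and 71.4 scaled TPM without IL-2 and at 63.5, 62.1 and 58.8 with IL-2 (log2 -0.24, SE 0.14, adjusted p = 0.339). 1G12t held 66.5, 73.7 and 76.6, and 3A10t 74.2, 46.0 and 55.5, where replicate 1 again lay with EV no IL-2 and replicates 2 and 3 below it. The 3A10t difference of log2 -0.33 (adjusted p = 0.171) became -0.51 (adjusted p = 0.00452) without replicate 1. Stat3, which IL-6 and IL-10 receptors use, stayed within a narrow range. Its 12 values lay between 222 and 305 scaled TPM, and the lowest, in 3A10t replicate 2, was the 1 library below 257. From the base of EV no IL-2, the log2 fold change of EV+IL-2 was 0.03 with a 95% interval from -0.19 to 0.26, and those of 3A10t and of 1G12t were -0.11 (interval from -0.34 to 0.11) and 0.00 (from -0.22 to 0.23). Stat3 was called in 0 of 6 comparisons, with the smallest adjusted p at 0.321, for 3A10t against EV+IL-2 (unadjusted p = 0.180).

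Most genes on a list of known STAT5 targets rose with IL-2, in the same libraries in which Stat5a and Stat5b RNA were lower. The list holds genes that STAT5 is known to drive and Bcl6, which it is known to repress. This list, and those of inhibitors and receptors below, were chosen with earlier results of these data known. Their counts describe these genes and are no test of the lists. Of 18 genes, 13 were called higher in EV+IL-2 than in EV no IL-2 and 1, Bcl6, lower, beside 8.17% and 5.13% of all genes, with a median log2 fold change of 0.83 beside -0.01 over all genes. The genes with the largest changes were Gzmb, which encodes the cytotoxic protease granzyme B (log2 3.64, SE 0.67, adjusted p = 0.00449), the cytokine genes Lta (log2 1.86, SE 0.12) and Osm (log2 1.63, SE 0.12), and the feedback inhibitor Socs1 (log2 1.28, SE 0.12). In 3A10t, 2 were called higher than in EV no IL-2, the feedback inhibitor Socs2 (log2 0.44, SE 0.08, adjusted p = 0.0271) and Ccnd2, a cyclin of G1 phase (log2 0.85, SE 0.17, adjusted p = 0.0387), and 1 was called lower, the repressor Bcl6 (log2 -0.66, SE 0.13, adjusted p = 0.0394), with a median of 0.24 beside 0.03. In 1G12t, 0 of 18 were called, where 0.0133% of all genes were called higher and 0.00665% lower, and the median was -0.02. Tnfrsf9, on the list, averaged 36.1% above EV no IL-2 in 1G12t and 43.9% above it in 3A10t without a call. The study lists it among the genes higher in 1G12t by its own unadjusted rule. Socs2 and Bcl6 were also called between 3A10t and 1G12t, at log2 0.56 (adjusted p = 0.0102) and -0.81 (adjusted p = 0.0213), and Ccnd2, at an adjusted p of 0.0601 without the replicate block, was called with it (log2 0.61, adjusted p = 0.0488).

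**Figure D5:**
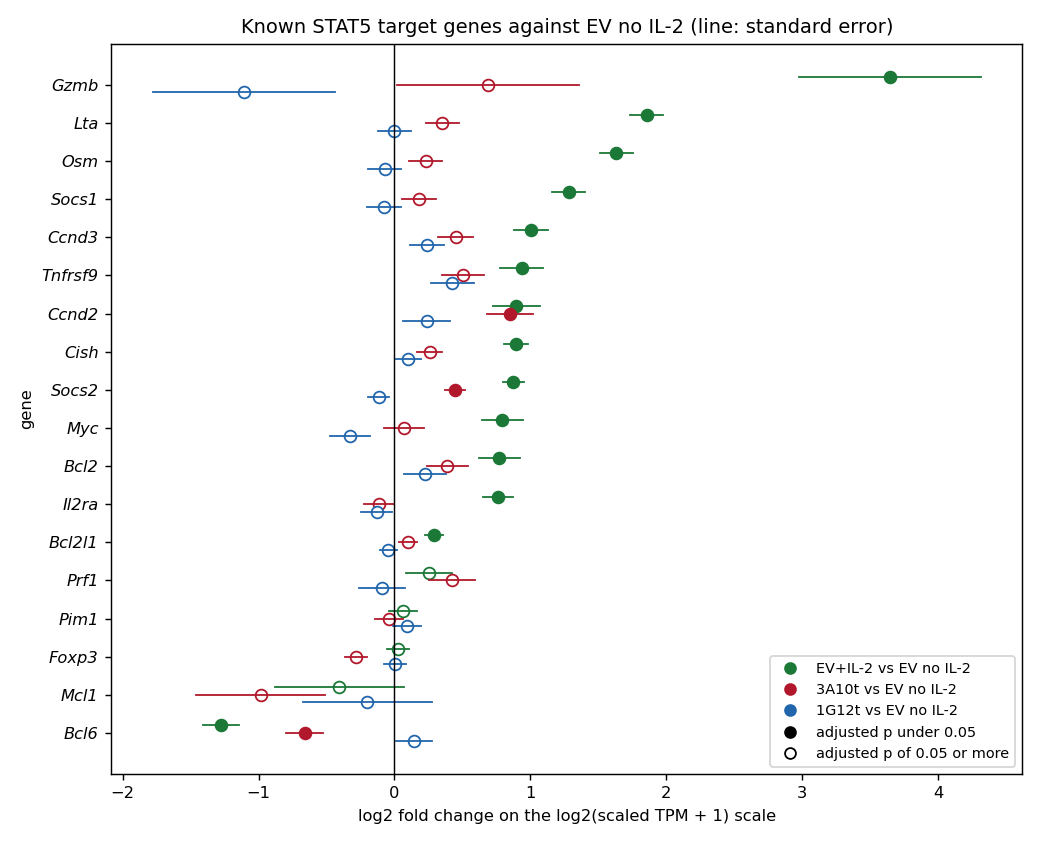
Log2 fold change (horizontal axis, on the log2(scaled TPM + 1) scale) of 18 known STAT5 target genes, with EV no IL-2 as the base, for EV+IL-2, for 3A10t and for 1G12t; lines are standard errors and filled points have an adjusted p under 0.05. For EV+IL-2, 13 points to the right and Bcl6 to the left are filled, for 3A10t Socs2, Ccnd2 and Bcl6, and for 1G12t none. The genes were chosen with earlier results of these data known.

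Of 18 inhibitors of JAK and STAT signaling, 4 were called higher with IL-2 and 0 lower, beside 8.17% and 5.13% of all genes, with a median log2 fold change of 0.16 beside -0.01 over all genes. These were the SOCS family members Socs1, Cish (log2 0.89, SE 0.09, adjusted p = 9.3e-05) and Socs2 (log2 0.87, SE 0.08, adjusted p = 3.3e-05) and the JAK phosphatase gene Ptpn1 (log2 0.65, SE 0.12, adjusted p = 0.00564). Cish, Socs1 and Socs2 are also among the 18 target genes. In 3A10t, Socs2 was called higher and Ptprc, which encodes the phosphatase CD45, lower, against both EV no IL-2 (log2 -0.59, SE 0.12, adjusted p = 0.0423) and 1G12t (log2 -0.67, SE 0.12, adjusted p = 0.0296). With the replicate block the first of these was not called (adjusted p = 0.0517). In 1G12t 0 of 18 were called.

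Of 19 cytokine receptor genes whose products use these kinases and STATs, 5 were called higher with IL-2 and 1 lower, the latter near the share of all genes (8.17% higher and 5.13% lower), with a median log2 fold change of 0.14 beside -0.01 over all genes. Higher were Il12rb2, a chain of the IL-12 receptor (log2 1.45, SE 0.20), Il2rb (log2 0.77, SE 0.09), Il2ra, the gene of CD25 (log2 0.76, SE 0.11), Il10ra and Ifngr1, the last not called with the replicate block (adjusted p = 0.0707). Il7r, the IL-7 receptor, was lower (log2 -1.41, SE 0.16, adjusted p = 0.000195). In 3A10t against EV no IL-2, 1 was called, Il2rb, higher (log2 0.48, SE 0.09, adjusted p = 0.0373), and the tethered construct itself carries a variant of this gene, so RNA of the vector and of the cell's own gene cannot be told apart. Il7r was called lower in 3A10t than in 1G12t (log2 -0.65, SE 0.16, adjusted p = 0.0498), but not with the replicate block (0.0553). In 1G12t, 0 of 19 were called, with a log2 fold change of Il2rb of 0.56 (SE 0.09, adjusted p = 0.298) beside 0.48 in 3A10t. Its 1G12t libraries held from 363 to 431 scaled TPM, above the 249.8 to 288.5 of EV no IL-2 (8.68% of all genes lay above). The study lists Il2rb as higher in 1G12t by its own unadjusted rule and reads it as a sign of transduction. The 1G12t construct carries the receptor variant too.

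The genes with the pattern nearest to a member were sought over the 12 libraries among 10041 genes with a mean of at least 5 TPM, by the root mean square (RMS) difference between log2 profiles that had each been centred on its mean. For Stat5b they were Fbxo32 (0.0786), Dgka (0.0959) and Btg2 (0.10), where the median over all genes was 0.371. For Stat5a they were Xylt2 (0.102), Rnf216 (0.103) and Fam118a (0.106), with a median of 0.370. For Jak1 they were the transcription factor gene Ets1 (0.0971), Trbv2 (0.108) and Sigirr (0.108), with a median of 0.336. For Jak3 they were Coro7 (0.0683), Carhsp1 (0.0772) and Tlr6 (0.0795), with a median of 0.299, and for Stat2 Tmem30a (0.112), Hcfc2 (0.113) and Slc25a40 (0.116), with a median of 0.382. Stat5a and Stat5b differed from each other by 0.152, which placed Stat5a at rank 61 of the 10041 genes ordered by nearness to Stat5b. The 12 points of a profile share their libraries, and the likeness is a description without a test.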

How the data were processed

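The values analysed were deposited TPM, 1 column for each of 12 RNA libraries made from Tregs in culture, 3 to a group. Per the labels and methods, the authors trimmed reads with cutadapt 1.18, aligned them to mm10 (GRCm38) with STAR 2.5.3 and estimated TPM with RSEM 1.3.0. The authors' DESeq2 1.26 tests rest on counts that were not used here. Amplified full-length cDNA primed with oligo-dT was read in pairs of 50 bases. TPM are relative to the library total and to transcript length, so a gene's TPM can fall when others rise.

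TPM were divided by median-of-ratios factors, and genes averaging 1 TPM or more were tested with limma 3.58.1 (lmFit, eBayes with a trend) in R 4.3.3 on log2(scaled TPM + 1). A fold change on this scale understates the change of low genes. All 12 libraries entered 1 fit without a replicate block, and p-values were Benjamini-Hochberg adjusted over 15043 genes within a comparison. A call is an adjusted p under 0.05. Ratios were tested by an exact permutation F test on log2 ratios, over 369600 arrangements, with numpy 2.4.6 and Python 3.11.15. Its p-value is the share of arrangements with an F at least as large, and F has no direction. The tests were checked on simulated data. The members, the gene lists, the markers and the tests were chosen with earlier results of these data known. From each list, up to 4 called genes with the largest log2 fold change with IL-2 are named, and every gene called in 3A10t or 1G12t against EV no IL-2 or between them, with Il10ra and Ifngr1 named to complete a count. Foxp3 and Tnfrsf9 are named besides, outside this rule. Groups and replicate numbers came from the labels, which give a shared sort for libraries with the same number. As a check of that pairing, deviations from the group means correlated by 0.041 on average over 18 pairs with the same number and by -0.020 over others. Gene positions are from GENCODE M21 and start regions from RefSeq, in which all 9 members were found. Alternatives were another pseudocount (0.1 or 5), filter, scaling, fit, transcript length correction (lowess, span 0.3) or block, and the omission of every library once. After the data were seen, 2 more were chosen, a blocked fit without 3A10t replicate 1 and a fit restricted to protein-coding genes.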

Additional observations from a re-analysis of the deposited data

How the results depend on the processing

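TPM give no depth, so how far counting error limits the low transcripts, Jak2 above all, is unknown, and 3 cultures of a single pool of mice cannot show variation between animals. Of 1350 fold changes of the 9 members recomputed under alternatives, 1180 kept their sign and their side of the threshold, 69 newly passed it, 56 no longer passed it and 45 changed sign. In none of those 45 was the adjusted p under 0.05. Where a change below has no reason given, the cause was not tested.

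For EV+IL-2 against EV no IL-2, the main count of 3 members called became 6 with only the 6 libraries compared (21.3% of all genes called) and 5 without 3A10t replicate 1 with the replicate block (18.2%), and ranged from 2 to 5 over the fits that leave out 1 library (8.08% to 17.8%). For 3A10t against EV no IL-2, the main count of 1 became 0 with only the 6 libraries compared, without a filter on low TPM, under quantile normalization, with eBayes without a trend and with the transcript length correction, 2 with a mean TPM of at least 5, with TPM as deposited and with the replicate block, 3 with protein-coding genes only (6.03% of all genes called) and 6 without 3A10t replicate 1 with the replicate block (27.9%), and ranged from 0 to 6 over the leave-1-out fits (0.166% to 23.2%). For 3A10t against 1G12t, the main count of 1 became 0 under the same 5 settings, 2 under TPM as deposited, a mean TPM of at least 5, protein-coding genes only and the replicate block, and 6 without 3A10t replicate 1 with the replicate block (32.5% of all genes), and ranged from 0 to 5 (0.316% to 27.6%). For 3A10t against EV+IL-2, the main count of 4 became 1 with only the 6 libraries compared (12.6%) and ranged from 2 to 7 (12.9% to 33.7%). For 1G12t against EV+IL-2, the main count of 2 became 4 without 3A10t replicate 1 with the replicate block (27.2%) and ranged from 2 to 4 (13.2% to 25.4%). For 1G12t against EV no IL-2, the count stayed at 0 under all 25 alternatives. The F of the Jak1 to Jak3 ratio, 7.30, became 7.47 with the replicate block, at an adjusted p of 0.0868, and ranged from 4.45 to 26.4 over the leave-1-out fits. Apart from the values given beside the results, the replicate block (pairing by sort) changed no other call of a member. Unscaled TPM put the median over all genes at log2 -0.18, beside -0.02 with scaled TPM, between 3A10t and 1G12t, where 0.638% were called higher and 8.64% lower, 0.11 beside 0.02 between 1G12t and EV+IL-2 (13.4% and 8.44%) and -0.09 beside 0.03 between 3A10t and EV no IL-2 (0.352% and 2.96%). Quantile normalization gave 11.3% and 10.4% between 3A10t and EV+IL-2.

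None of the fold changes that changed sign was called in either fit. With TPM as deposited, these were Stat3 in EV+IL-2 against EV no IL-2 (-0.028), Stat4 in 1G12t against EV no IL-2 (0.035), Jak1 in 3A10t against 1G12t (-0.19), Jak2 in 1G12t against EV+IL-2 (0.10), Stat3 in 1G12t against EV+IL-2 (0.075). With quantile normalization, these were Stat3 in EV+IL-2 against EV no IL-2 (-0.051), Stat4 in 1G12t against EV no IL-2 (0.064), Jak1 in 3A10t against 1G12t (-0.21), Stat3 in 1G12t against EV+IL-2 (0.13). With the transcript length correction, with or without the replicate block, these were Jak3 in 3A10t against EV no IL-2 (0.010), Stat3 in 3A10t against EV no IL-2 (0.017), Stat3 in 1G12t against EV no IL-2 (-0.049), Stat4 in 1G12t against EV no IL-2 (0.023), Stat3 in 3A10t against 1G12t (0.066). With protein-coding genes only, these were Stat4 in 1G12t against EV no IL-2 (0.0061), Jak2 in 1G12t against EV+IL-2 (0.015). With pseudocount of 0.1, this was Jak2 in 1G12t against EV+IL-2 (0.0018). With 1 library left out, those that changed sign ranged, on the log2 scale, for Jak2 in EV+IL-2 against EV no IL-2 from -0.64 to 0.022, Stat3 in EV+IL-2 against EV no IL-2 from -0.012 to 0.080, Jak3 in 1G12t against EV no IL-2 from -0.027 to 0.12, Stat2 in 1G12t against EV no IL-2 from -0.18 to 0.031, Stat3 in 1G12t against EV no IL-2 from -0.033 to 0.067, Stat4 in 1G12t against EV no IL-2 from -0.049 to 0.051, Stat5a in 1G12t against EV no IL-2 from -0.0072 to 0.045, Jak1 in 3A10t against 1G12t from -0.17 to 0.13, Stat4 in 3A10t against EV+IL-2 from -0.27 to 0.054, Jak2 in 1G12t against EV+IL-2 from -0.44 to 0.33, Stat3 in 1G12t against EV+IL-2 from -0.078 to 0.033.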
